A study of Mus musculus with 4 samples.

Results

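The liver transcripts described here come from 10 genes of serpin clade A: Serpina12, which encodes vaspin; Serpina1a, Serpina1b, Serpina1c, Serpina1d and Serpina1e, which encode the alpha-1 antitrypsins of the mouse; Serpina3k, Serpina3m and Serpina3n, of the antichymotrypsin group; and Serpina6, which encodes corticosteroid-binding globulin. They were taken by symbol from a table of 22849 gene symbols, in which they occupied 13 rows; rows with the same symbol were summed. The choice was made with the difference between the groups already known, above all that of Serpina12. The levels of these 10 genes and their differences between groups are therefore a description, given without a p-value. Male C57BL/6 mice, an inbred strain, ate a diet with 60% fat for 12 weeks, either as such (vehicle) or with UAB126, a compound known here only by that code, at 1.2 g per kg of diet. Bulk liver RNA was sequenced in 2 libraries per group. The mice of both groups were on the fattening diet, so no group on a normal diet was part of the comparison, and no age of the mice is known here. Nothing beyond the numbered titles says that the libraries came from separate mice, so a p-value here reflects how 4 samples scatter, and technical scatter may be part of it.

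Serpins inhibit proteases by a trap. The protease cuts an exposed stretch of the serpin, the reactive loop, and stays bound to it while the serpin refolds, and the sequence of the loop sets which protease is caught. Hepatocytes secrete most of the alpha-1 antitrypsin of plasma, whose main target is neutrophil elastase. The mouse genome holds several copies of this gene where the human genome has a single one, SERPINA1. Vaspin was first described in visceral fat of obese rats and inhibits kallikrein 7. Corticosteroid-binding globulin keeps the serpin fold, inhibits no known protease and carries glucocorticoids in blood.

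The sequences show which of these genes can be told apart by sequencing. In the GENCODE M21 transcripts, the coding sequences of the 5 antitrypsin genes matched at between 96.3% (Serpina1b and Serpina1e, and Serpina1d and Serpina1e) and 98.5% (Serpina1a and Serpina1c) of aligned bases. Their differences were not spread evenly. Of the aligned columns 86 differed among the copies (6.9%), against 18 of the 60 columns in the most divergent window (30.0%), which lies near the end of the coding sequence and holds the bases of the reactive loop. The window ends 79 bases before the end of the coding sequence in each copy and lies in 1 exon, on the minus strand of chromosome 12 in GRCm38 (the assembly also called mm10). It is at chr12:103853757-103853816 in Serpina1a, chr12:103728324-103728383 in Serpina1b, chr12:103895094-103895153 in Serpina1c, chr12:103763762-103763821 in Serpina1d and chr12:103947100-103947159 in Serpina1e. It is shown because it is where the 5 proteins differ in the part that meets the protease. Capitals mark the columns in which the copies differ.
Serpina1a: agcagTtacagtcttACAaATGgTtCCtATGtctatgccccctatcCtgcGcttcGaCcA
Serpina1b: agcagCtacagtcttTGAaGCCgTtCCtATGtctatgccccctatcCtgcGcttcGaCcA
Serpina1c: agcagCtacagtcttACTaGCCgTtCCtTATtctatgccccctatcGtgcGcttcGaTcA
Serpina1d: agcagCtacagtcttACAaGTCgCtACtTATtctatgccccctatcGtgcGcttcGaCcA
Serpina1e: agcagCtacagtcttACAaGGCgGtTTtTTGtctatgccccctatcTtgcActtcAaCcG

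**Figure D1:**
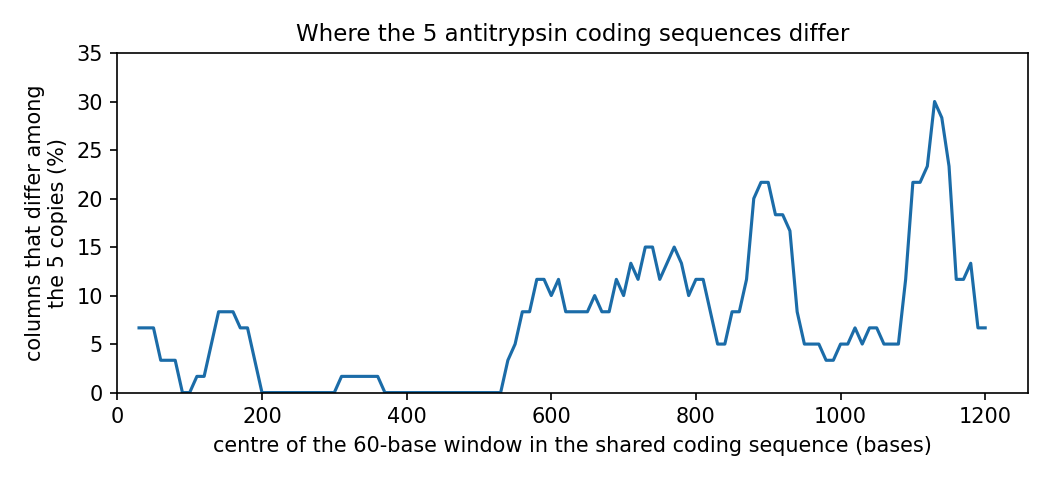
Percent of alignment columns that differ among the coding sequences of Serpina1a to Serpina1e (y axis), in windows of 60 bases along their shared columns (x axis, bases). The highest point, 30.0%, is the window printed above, and long stretches in the first part of the sequence do not differ at all.

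Copies this close share reads. Of the stretches of 75 bases, the read length, in each gene's transcript, 73.6% in Serpina1c and 57.5% in Serpina1a also occur in a transcript of another gene. The share was 37.1% in Serpina1d, 25.1% in Serpina1b and 20.3% in Serpina1e. It was 9.7% in Serpina3m, 7.4% in Serpina3k and 1.5% in Serpina3n. None of the stretches of Serpina12 or Serpina6 occurred elsewhere. How the authors' software divided shared reads thus enters the single values of Serpina1a to Serpina1e more than their sum, and least those of Serpina12 and Serpina6. Reads were sequenced from both ends of a fragment, so a pair can be unique where 1 of its reads is not.

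Serpina12 was low with UAB126. It is a single-copy gene on the minus strand at chr12:104028769-104044443. Its level was 39.5 and 52.5 FPKM (fragments scaled by transcript length and library size) in the vehicle libraries 1 and 2, against 3.38 and 1.49 FPKM in the UAB126 libraries 1 and 2. Both vehicle libraries were high and both UAB126 libraries low, with a wide gap between the groups. The means were 46.0 ± 9.14 and 2.43 ± 1.34 FPKM (SD, n = 2 each), so that 5.29% of the vehicle level was left, a ratio of 18.9. On the log2(FPKM + 1) scale, which understates the change of low genes, the difference was -3.82 ± 0.32. For every gene named here ± after a log2 difference is limma's moderated SE with n = 2 per group, with 5.35 degrees of freedom, of which 3.35 are borrowed from all symbols fitted. The UAB126 libraries differed from each other by a ratio of 2.27, more than the vehicle libraries (1.33), at a level where each value rests on fewer fragments.

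**Figure D2:**
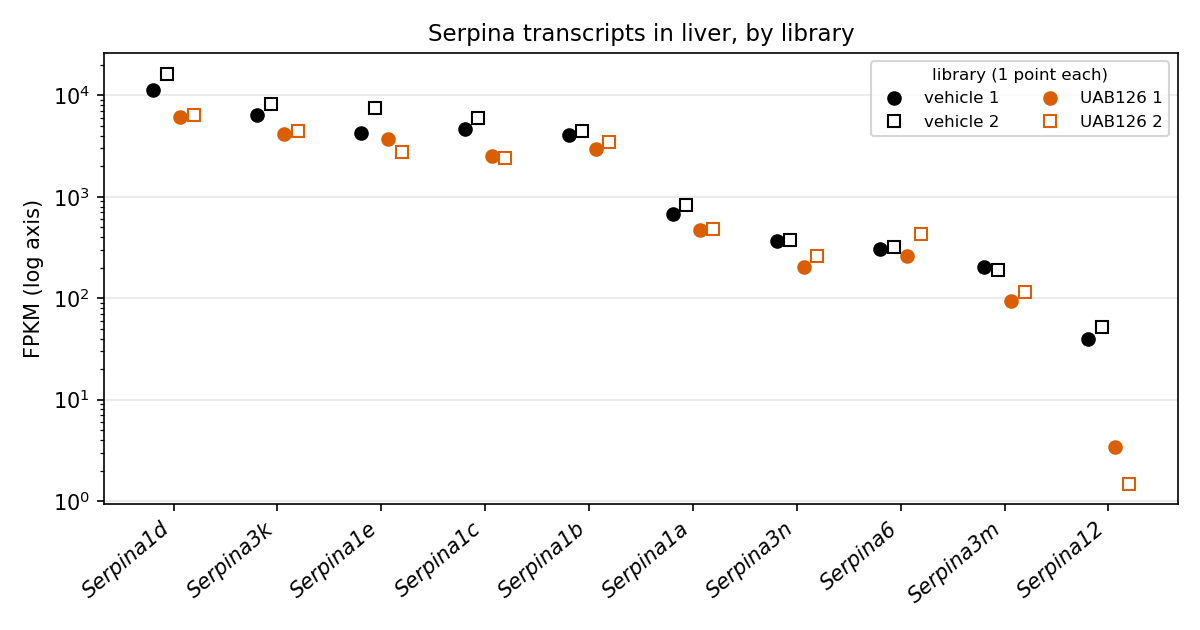
FPKM (log axis) of the 10 serpin genes, ordered by their mean in vehicle, with 1 point per library (circles, replicate 1; squares, replicate 2; black, vehicle; orange, UAB126). Serpina12 is the lowest gene, at 39.5 and 52.5 FPKM without UAB126 and 3.38 and 1.49 FPKM with it, and Serpina6 is the gene whose groups overlap.

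Serpina1b to Serpina1e were near the top of the liver's transcripts, at ranks 32 to 59 of 10786 by mean FPKM. Serpina1a was at rank 231, and each of the 5 antitrypsin genes was lower in both UAB126 libraries. Serpina1d, the most abundant of the 10 genes and rank 32 of 10786 by mean FPKM, was at 11354 and 16387 FPKM in the vehicle libraries, against 6056 and 6361 FPKM with UAB126 (log2 difference -1.14 ± 0.37). The vehicle libraries differed by a ratio of 1.44, and those with UAB126 by 1.05. Serpina1c was at 4671 and 5999 against 2512 and 2394 FPKM (-1.11 ± 0.32). These copies, at 44.8% and 46.0% of their vehicle means, differed most between the groups among the antitrypsin genes. Serpina1e was at 4215 and 7520 against 3687 and 2782 FPKM (-0.81 ± 0.41), where vehicle replicate 1 lay close to UAB126 replicate 1; the difference was -1.23 without vehicle replicate 1 and -0.40 without vehicle replicate 2. Serpina1a, the least abundant of the 5, was at 679.6 and 827.7 against 465.2 and 483.7 FPKM (-0.66 ± 0.26). Serpina1b was at 4093 and 4475 against 2921 and 3476 FPKM (-0.43 ± 0.31), the smallest difference of the 5 and one that turned to 0.33 with quantile normalization.

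Summed over the 5 copies, antitrypsin transcripts came to 25013 and 35207 FPKM in the vehicle libraries, against 15642 and 15496 FPKM with UAB126. The UAB126 libraries were nearly equal, the vehicle libraries were not, and the groups did not overlap. The sum with UAB126 was 51.7% of vehicle, a log2 difference of -0.93 ± 0.40. It was -0.03 with quantile normalization, which forces the most abundant genes of each library to the same values, and between -1.18 and -0.68 when 1 library was left out, at -0.68 without vehicle replicate 2.

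The make-up of the sum does not depend on how a library was scaled. Serpina1d made up 45.4% and 46.5% of it in vehicle and 38.7% and 41.1% with UAB126. Serpina1b made up 16.4% and 12.7% in vehicle and 18.7% and 22.4% with UAB126. So the share of Serpina1d was lower, and that of Serpina1b higher, in both UAB126 libraries. For Serpina1c the shares were 18.7% and 17.0% against 16.1% and 15.4%, and for Serpina1a 2.72% and 2.35% against 2.97% and 3.12%. Those of Serpina1e, at 16.9% and 21.4% against 23.6% and 18.0%, overlapped between the groups. These shares are of FPKM, which is per transcript length, and with 2 libraries a group an exact permutation test cannot go below 0.333 (two-sided).

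**Figure D3:**
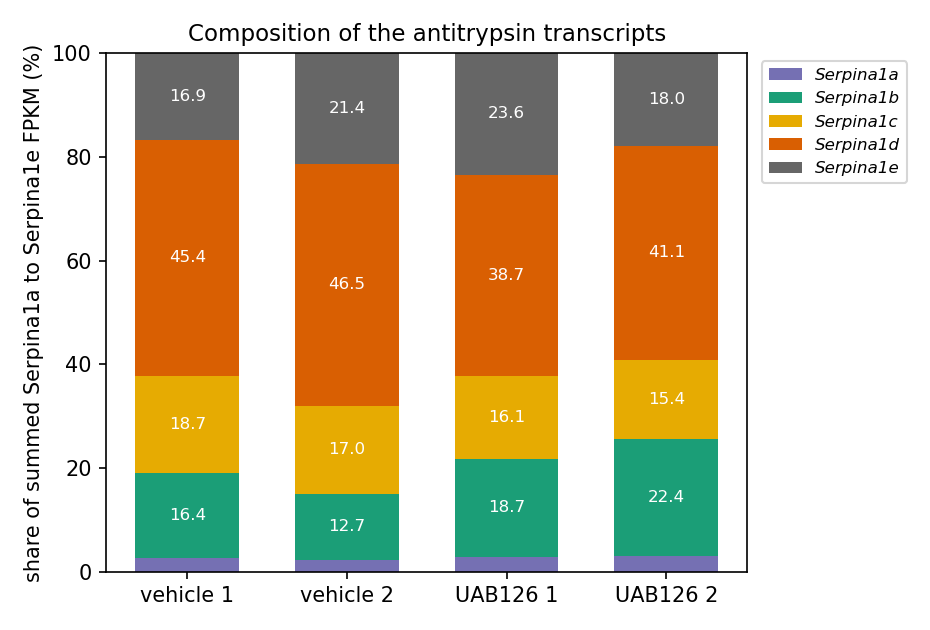
Share of each antitrypsin gene in the summed FPKM of Serpina1a to Serpina1e (y axis, percent), with 1 bar per library. Serpina1d is the largest part of every bar, at 45.4% and 46.5% in vehicle and 38.7% and 41.1% with UAB126.

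The 3 genes of the antichymotrypsin group were also lower in both UAB126 libraries, by a summed log2 difference of -0.76 ± 0.33 that was -0.06 with quantile normalization. Serpina3k, also called contrapsin, was at 6426 and 8276 FPKM in the vehicle libraries, against 4194 and 4395 FPKM with UAB126 (log2 difference -0.76 ± 0.33, and -0.12 with quantile normalization). It made up between 91.9% and 93.6% of the sum of the 3 genes in every library. Serpina3n, an inhibitor of granzyme B whose transcript rises in inflammation, was at 367.0 and 373.4 against 204.2 and 258.7 FPKM (-0.69 ± 0.25). Serpina3m was at 201.4 and 190.0 against 93.6 and 114.3 FPKM (-0.91 ± 0.23). In Serpina3m and Serpina3n the vehicle libraries differed by less, at ratios of 1.06 and 1.02, than in any antitrypsin gene. The coding sequences of Serpina3k and Serpina3m matched at 91.4% of aligned bases, and those of Serpina3k and Serpina3n at 82.9%.

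Serpina6, the steroid carrier (chr12:103646630-103657212, minus strand), was the gene of the 10 that was not lower. It was at 305.6 and 318.8 FPKM in the vehicle libraries, against 258.0 and 429.4 FPKM with UAB126. The vehicle values lay between the UAB126 values, which differed by a ratio of 1.66, and the log2 difference was 0.09 ± 0.32. Without UAB126 replicate 2 it was -0.27, and without UAB126 replicate 1 it was 0.46. Set against the summed antitrypsin transcripts, Serpina6 stood at 122 and 90.6 FPKM per 10000 FPKM in the vehicle libraries, against 165 and 277 with UAB126. On the same measure Serpina12 went from 15.8 and 14.9 to 2.16 and 0.962, so that its difference was also seen against its abundant relatives.

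By level the order in vehicle was Serpina1d, Serpina3k, Serpina1e, Serpina1c, Serpina1b, Serpina1a, Serpina3n, Serpina6, Serpina3m and Serpina12. The neighbours Serpina3k and Serpina1e, and Serpina1e and Serpina1c, had overlapping values there. With UAB126 Serpina1b stood above Serpina1c and Serpina6 above Serpina3n, and the neighbours whose values overlapped were Serpina1e and Serpina1b, and Serpina6 and Serpina3n.

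All 10 genes passed the filter, which kept symbols averaging 1 FPKM or more. In the fit over 10786 symbols, 15 passed the threshold (limma, Benjamini-Hochberg adjusted p under 0.05), which is 0.139%; 0.0927% passed as lower and 0.0464% as higher. Of the 10 genes 1, Serpina12, passed as lower, and it no longer passed without UAB126 replicate 1 or without UAB126 replicate 2. Both UAB126 libraries were below both vehicle libraries in 9 of the 10 genes and in 26.9% of all symbols tested, and above both in 0 of the 10 genes and 22.7% of all symbols. The genes were chosen on this contrast, so nothing is read from these counts. The median log2 difference was -0.79 over the 10 genes and -0.03 over all symbols. It was -0.26 over the 10 genes with quantile normalization and -0.58 with the trend with transcript length removed.

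Genes of high level were lower with UAB126 in general, and 9 of the 10 genes are of high level. Among the 150 symbols that averaged 1000 FPKM or more, the median log2 difference was -0.70, and both UAB126 libraries were lower in 91 (60.7%) and higher in 8. Serpina1b, Serpina1c, Serpina1d, Serpina1e and Serpina3k belong to these. Among the 886 symbols from 100 to 1000 FPKM, where Serpina1a, Serpina3m, Serpina3n and Serpina6 lie, the median was -0.37. In the 4154 symbols from 10 to 100 FPKM, where Serpina12 lies, it was -0.08. With quantile normalization the medians of these 3 groups were 0.03 or smaller. Quantile normalization gives all libraries the same set of values, so small medians follow from the method. The part of the relation to level in the difference of the abundant serpins was not tested. Serpina12 lay far outside the values usual at its level, and its difference was -3.75 with quantile normalization.

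**Figure D4:**
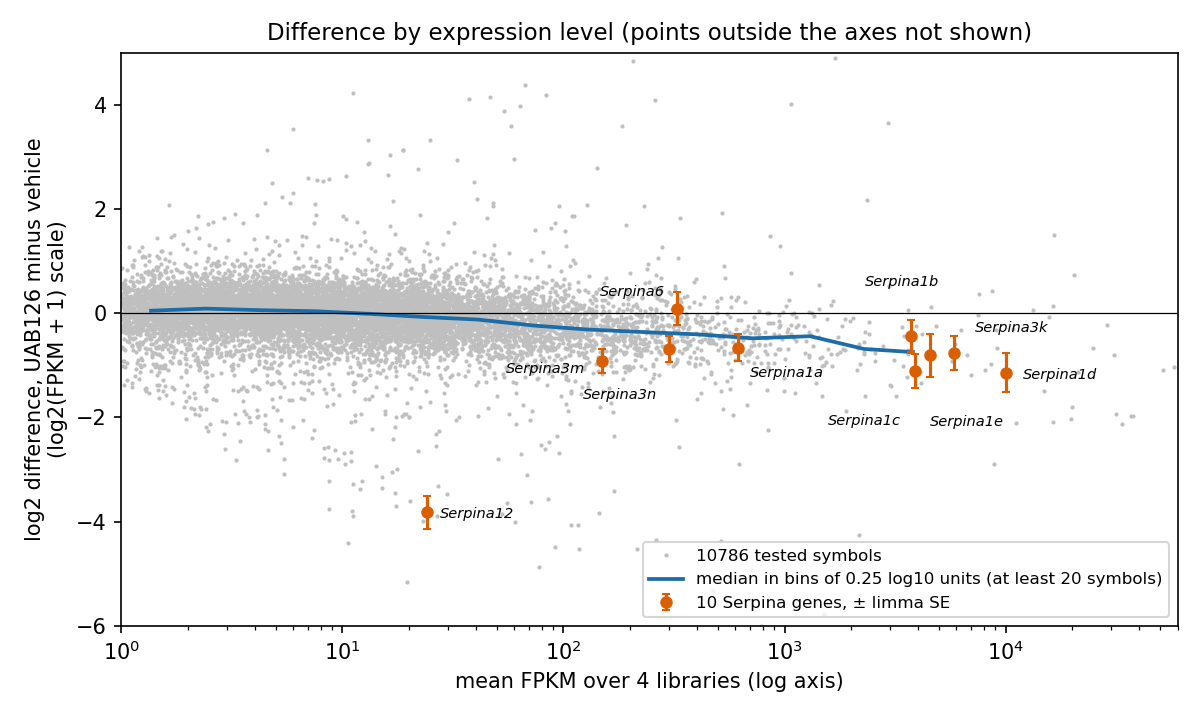
Log2 difference between UAB126 and vehicle (y axis, log2(FPKM + 1) scale) against mean FPKM over the 4 libraries (log axis). Grey points are tested symbols, the blue line is their median by level, and orange points are the 10 serpin genes with limma's SE; the antitrypsin genes lie near the line, which falls below 0 for abundant genes, and Serpina12 lies far below it at -3.82.

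In bulk liver, fewer cells of a type and less RNA per cell cannot be told apart. Hepatocyte markers were high in every library, in keeping with the label liver, although albumin (Alb) is listed at 0 in all but vehicle replicate 2, at 32243 FPKM there. Summed without Alb, the other 8 hepatocyte markers in the table came to 76470 and 113104 FPKM in the vehicle libraries, against 41401 and 60529 FPKM with UAB126. Of the 9 with Alb, 6 were lower in both UAB126 libraries (26.9% of all symbols were) and 1, Tat, was higher (22.7% of all symbols). The transthyretin gene Ttr was at 34335 and 44092 against 19625 and 25328 FPKM. Fat is another tissue that makes vaspin, and of its markers 4 were tested and 0 passed. Of the 4, 2, Cfd and Lipe, were lower in both UAB126 libraries (26.9% of all symbols were). Adipoq was at 2.80 and 2.59 against 2.09 and 4.47 FPKM, and Plin1 stayed under 1 FPKM in every library. The 6 adipocyte markers in the table summed to 237.3 and 73.9 FPKM in the vehicle libraries, against 14.9 and 40.8 FPKM with UAB126. Cfd (adipsin) was the largest part of the vehicle sums, at 213.2 and 51.2 against 2.54 and 19.6 FPKM (log2 difference -3.63, limma adjusted p = 0.275, and -2.36 without UAB126 replicate 1). Lipe, for hormone-sensitive lipase, was at 17.5 and 14.3 against 7.62 and 7.38 FPKM (-0.98 ± 0.19, limma adjusted p = 0.199). Cfd and Lipe differed in the direction of Serpina12, and the other adipocyte markers overlapped between the groups. Retn was at 2.79 and 4.32 against 1.81 and 7.6 FPKM, and Lep at 0.633 and 0.74 against 0.645 and 0.986 FPKM. The mean with UAB126 was higher for Retn, Lep and Adipoq. No marker of the list was at 0 in all libraries, and the part of these markers in the difference of Serpina12 was not tested. Vehicle replicate 1 had less of the Kupffer cell markers, at a sum of 55.2 FPKM against 142.6 to 158.8 FPKM in the others. The neutrophil markers summed to 31.8 FPKM in vehicle replicate 2, against 1.26 to 3.56 FPKM in the others. Nearly all of the 31.8 FPKM was S100a8 (24.7 FPKM) and S100a9 (6.81 FPKM). Elane was higher in vehicle replicate 1 (1.0 against 0.286 FPKM), and Mpo, Camp, Ngp and Retnlg were at 0 in vehicle replicate 2. The part of either in these results was not tested.

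The genes lie in 1 cluster of 767.7 kb on chromosome 12, and position was looked at next. Serpina1a to Serpina1e and Serpina12 are on the minus strand, from Serpina1b (chr12:103728156-103830373, with a transcript that runs past Serpina1d) to Serpina1d (chr12:103763594-103773592), Serpina1a (chr12:103853589-103863562), Serpina1c (chr12:103894926-103904887) and Serpina1e (chr12:103946931-103958975). Serpina3k (chr12:104338486-104346144), Serpina3m (chr12:104338486-104394257, with a transcript that starts at Serpina3k) and Serpina3n (chr12:104406729-104414329) are on the plus strand. Among the 25 symbols with a row of their own from 200 kb before to 200 kb after the genes, 15 were tested. Of these 15, 5 are not among the 10. A row shared by Serpina3f and Serpina3g (chr12:104214543-104241934) also lies there and is not counted among the 25. That row was tested and was at 2.87 and 7.25 against 6.96 and 11.2 FPKM, which overlap (0.8 ± 0.42, limma adjusted p = 0.435). The neighbour of Serpina12 on the side of its start is Serpina4-ps1, annotated as an unprocessed pseudogene on the plus strand, 36206 bases away (chr12:104080649-104086724). It was singled out after its values were seen. It was at 208.2 and 91.1 FPKM in the vehicle libraries, against 7.56 and 1.64 FPKM with UAB126, a difference of -4.87 ± 0.66 that did not pass (limma adjusted p = 0.108). No stretch of 75 bases of its transcript occurs in another gene. On the other side of Serpina12, the hepatic gene Serpina11 (chr12:103980243-103989957) was at 67.4 and 79.9 against 38.4 and 48.8 FPKM (-0.75 ± 0.23, limma adjusted p = 0.302). Serpina9, between them, had a mean under 1 FPKM and was not tested. Serpina12 and Serpina4-ps1 thus had the lowest log2 differences of the 15 tested genes of the region, and a difference between genes was not tested. Serpina4-ps1 passed without vehicle replicate 1 (-4.28, limma adjusted p = 0.0149) and without vehicle replicate 2 (-5.46, limma adjusted p = 0.0274), and over all alternatives its adjusted p ran from 0.00468 to 0.601.

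**Figure D5:**
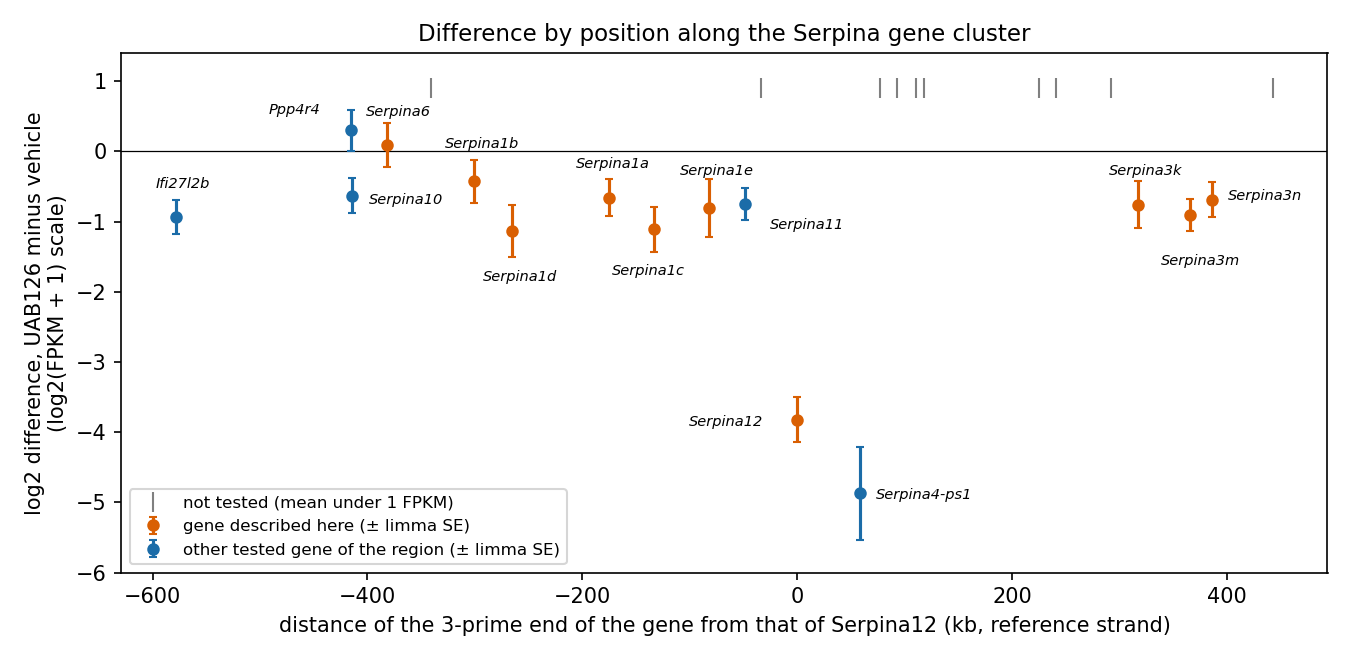
Log2 difference between UAB126 and vehicle (y axis, log2(FPKM + 1) scale, bars are limma's SE) of the 15 tested genes of the cluster by the distance of their 3-prime end from that of Serpina12 (x axis, kb), with grey ticks for genes not tested. Serpina12 at -3.82 and Serpina4-ps1 at -4.87 lie next to each other and below all other genes shown. The row shared by Serpina3f and Serpina3g is not among the 15 and is not shown.

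The stretches before the transcription starts were compared as well, and their relation to the differences between groups was not tested. RefSeq (GRCm38.p6) gave a promoter for 7 of the 10 genes, and the 250 bases before the start were searched on both strands for 9 short motifs. These were the core of the HNF1 site (GTTAAT), part of the HNF4 site (CAAAGTCCA), a C/EBP site (TTGCNNAA), a STAT site (TTCNNNGAA), the CCAAT box (CCAAT), the TATA box (TATAAA), a glucocorticoid receptor site (TGTTCT), an NF-kB site (GGGNNTTCC) and a PPAR site (AGGTCA). HNF1 is a transcription factor of hepatocytes on which the human antitrypsin gene is known to depend. All 5 antitrypsin promoters held 1 HNF1 core, and Serpina12 and Serpina3n held none, against 6.5% of 32536 different promoter windows. The CCAAT box was found in 6 of the 7 (33.8% of all windows); in each antitrypsin promoter 1 CCAAT box, read on the other strand, shares 1 base with the HNF1 core. The receptor site TGTTCT was found in 6 of the 7 (16% of all windows). The windows of the 5 antitrypsin genes are largely the same sequence, so a match tends to recur in all of them. Counts over these windows are therefore not counts of independent promoters. The C/EBP site was found in Serpina12, Serpina1b, Serpina1d and Serpina1e (9.6% of all windows). The other 5 motifs were in none of the 7, against 0.4% (HNF4), 7.0% (STAT), 12.3% (TATA), 5.0% (NF-kB) and 14% (PPAR) of all windows. A match is a run of letters, not a bound site. The windows of Serpina12 (chr12:104044444-104044693) and Serpina1d (chr12:103773634-103773883), both on the minus strand and read 5′ to 3′, are shown as those of the gene with the largest difference and of the most abundant gene. Capitals mark the HNF1 core.
Serpina12: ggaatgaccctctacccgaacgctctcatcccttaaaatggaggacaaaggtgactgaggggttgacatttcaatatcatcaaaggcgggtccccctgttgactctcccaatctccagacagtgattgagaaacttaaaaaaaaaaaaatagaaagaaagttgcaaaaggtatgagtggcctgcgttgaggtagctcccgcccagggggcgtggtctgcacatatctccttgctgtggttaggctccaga
Serpina1d: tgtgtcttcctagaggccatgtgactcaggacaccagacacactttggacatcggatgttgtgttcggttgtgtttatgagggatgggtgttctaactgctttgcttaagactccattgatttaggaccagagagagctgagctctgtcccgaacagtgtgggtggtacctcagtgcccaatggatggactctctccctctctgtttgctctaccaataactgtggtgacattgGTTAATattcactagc

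Other serpin genes were measured in the same fit and were not used in the choice of the 10. Of 16 other clade A genes listed, 13 had a row of their own, 4 were tested and 0 passed the threshold. Serpina10 (protein Z-dependent protease inhibitor) was at 120.3 and 167.1 against 89.0 and 93.4 FPKM (-0.63 ± 0.25, limma adjusted p = 0.37, and -0.40 without vehicle replicate 2). Agt, which encodes angiotensinogen, was at 597.0 and 700.7 against 402.1 and 588.8 FPKM (-0.41 ± 0.30, limma adjusted p = 0.54), and its direction turned with quantile normalization (0.05). It was -0.14 without UAB126 replicate 1 and -0.68 without UAB126 replicate 2. Serpina7, the thyroxine-binding globulin gene on chromosome X, was at 33.3 and 12.1 against 42.3 and 31.8 FPKM, which overlap. Among 21 serpins of other clades 13 were tested and 0 passed. Of these 13, 7 were lower in both UAB126 libraries (26.9% of all symbols were) and 0 higher (22.7%), with a median log2 difference of -0.25. Serping1 (C1 inhibitor) was at 798.8 and 884.9 against 402.0 and 472.5 FPKM (-0.95 ± 0.25, limma adjusted p = 0.27). Serpinb1a, an inhibitor of neutrophil proteases, was at 2.83 and 3.77 against 0.943 and 1.38 FPKM (-0.99 ± 0.24), and Serpinf2 (antiplasmin) at 499.6 and 631.4 against 343.4 and 418.0 FPKM (-0.57 ± 0.27).

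Inhibitors of plasma proteases with other folds were measured beside them. Of 16 tested, 0 passed, 10 lay lower in both UAB126 libraries (26.9% of all symbols did) and 1 lay higher (22.7%), with a median of -0.45 against -0.03 over all symbols. Abundant symbols lay lower more often. From 100 to 1000 FPKM, the level of Itih3 and Kng2, 47.6% did, with a median of -0.37. At 1000 FPKM or more, the level of Mug1, 91 of 150 did, with a median of -0.7. The part of level in the values of these inhibitors was not tested. Itih3, a heavy chain of the inter-alpha inhibitor, was at 602.7 and 934.2 against 257.9 and 276.9 FPKM (-1.49 ± 0.30, limma adjusted p = 0.214). Kng2 (kininogen 2) differed by -0.97 ± 0.27, and Mug1, of the alpha-2-macroglobulin family, was at 1916 and 2430 against 1046 and 1502 FPKM. Among the 6 tested of 15 proteases that serpins or related inhibitors act on, 0 passed. Prtn3 (proteinase 3) was at 1.48 and 8.15 against 0.162 and 0.922 FPKM (-1.67 ± 0.65); without vehicle replicate 1 it was -2.61 and passed (limma adjusted p = 0.00932, against 0.00932 to 0.922 over its alternatives), and without vehicle replicate 2 it was -0.73. The lysosomal protease gene Ctsl was at 360.9 and 382.2 against 676.7 and 714.8 FPKM (0.90 ± 0.24, limma adjusted p = 0.27) and Tmprss2 at 1.12 and 0.807 against 3.02 and 4.98 FPKM (1.32 ± 0.27).

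Genes for the machinery and regulators of hepatic serpins followed. Of 12 tested genes for folding, export and clearance 0 passed, with a median of -0.01; Lrp1, a receptor that clears serpin complexes, was at 295.0 and 356.3 against 190.8 and 222.2 FPKM (-0.65 ± 0.24). Stab1, a scavenger receptor, differed by 0.67 ± 0.21 and Os9, of endoplasmic reticulum quality control, by -0.39 ± 0.20. Of 18 transcription factors tested 0 passed, with a median of -0.01. The largest differences without overlap were those of Pparg (17.1 and 6.87 against 6.52 and 5.16 FPKM, -0.81 ± 0.41), Foxa1 (-0.61 ± 0.31) and Stat5b (0.49 ± 0.17). Single libraries weighed on them: Pparg was -0.21 without vehicle replicate 1 and -1.41 without vehicle replicate 2, and Foxa1 -0.19 and -1.03. Of 9 tested genes of the interleukin 6 and interleukin 1 receptor pathway 0 passed, with a median of -0.09. Il1r1 was at 8.49 and 10.9 against 17.7 and 28.1 FPKM (1.13 ± 0.28, limma adjusted p = 0.257), while Lifr and Il6st differed by -0.58 ± 0.23 and 0.58 ± 0.23 (Il6st by 0.38 without UAB126 replicate 1). Beside the steroid carrier Serpina6, 9 genes of glucocorticoid transport and response were tested, 0 passed, and the median was 0.67. Both UAB126 libraries were higher in 3 of the 9, the genes named next (22.7% of all symbols), and lower in 2 (26.9% of all symbols). The differences of the 9 genes ran from -0.99 to 2.11. In that list Zbtb16 was at 1.07 and 1.99 against 7.99 and 12.0 FPKM (2.11 ± 0.29, limma adjusted p = 0.108), Tat at 392.6 and 513.0 against 1118 and 1431 FPKM (1.49 ± 0.29), and the clock gene Per1 differed by 0.74 ± 0.26. The difference of Zbtb16 was between 1.85 and 2.38 when 1 library was left out, and that of Tat between 1.3 and 1.69. Tat passed with quantile normalization (1.94, limma adjusted p = 0.0488), and Zbtb16 did not (2.11, limma adjusted p = 0.0884).

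Finally, the genes whose values over the 4 libraries were most like those of Serpina12 were found by the distance between profiles of log2(FPKM + 1), each centred on its own mean. Over 10338 other symbols the median distance was 3.87. The nearest were 1500017E21Rik (0.58), a transcript without a known role at 48.0 and 40.7 against 2.22 and 1.55 FPKM, Obp2a (0.59), Lcn2 (0.65), the microRNA gene Mir692-1 (0.87) and Cyp26a1 (0.90). Obp2a, for a lipocalin that binds small molecules, was at 10.7 and 23.5 against 0.406 and 0.115 FPKM. Mir692-1 was at 15.6 and 26.7 FPKM and is listed at 0 in both UAB126 libraries. Its difference was -4.42, and -2.35 with a pseudocount of 5, where it did not pass (limma adjusted p = 0.0713). The libraries were selected for polyadenylated transcripts, and the number of fragments behind its values is not known here. Lcn2, an acute phase gene, and Cyp26a1, which clears retinoic acid, differed by -3.57 ± 0.33 and -3.79 ± 0.25. Of these 5 genes 1500017E21Rik, Mir692-1 and Cyp26a1 passed (limma adjusted p = 0.0207, 0.0294 and 0.0294), but none of these 3 did without UAB126 replicate 1 or without UAB126 replicate 2. Obp2a and Lcn2 did not pass (limma adjusted p = 0.059 and 0.0531). Both passed with median centring (limma adjusted p = 0.0479 and 0.034) and with a pseudocount of 0.1 (0.0454 and 0.0405). Neither passed with a pseudocount of 5 (0.132 and 0.0766). With quantile normalization Lcn2 passed (0.0292) and Obp2a did not (0.066). When 1 library was left out, their differences were between -4.29 and -3.22 and between -4.02 and -3.12. For the summed antitrypsin genes the nearest were Ell3 (0.06), Kng2 (0.09) and Caml (0.09), against a median distance of 1.05. Such likeness rests on 4 libraries and a single contrast and says nothing of shared control. Serpina12 was chosen on this contrast, so the genes nearest to it differ between the groups by construction. Nothing is read from how many of them passed, against 0.139% of all symbols.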

How the data were processed

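Liver RNA was measured in 4 libraries, 2 per group. Per the labels' protocols, RNA was selected for polyadenylated transcripts and read as 75 bases from either end. Cuffdiff, Cufflinks 2.2.1, STAR 2.5.1b and Trim Galore 0.4.1 were used with build mm10, per the submitters' processing notes; annotation, settings and the handling of shared reads are not known here. The authors deposited FPKM values, scaled by transcript length and library size, which are not counts. Of 27216 rows, 3634 without a symbol were left out. The relative depth, read from the commonest ratio of values under 0.3 FPKM and set to 1 in UAB126 replicate 1, was 0.691, 0.404 and 0.703 in vehicle replicates 1 and 2 and UAB126 replicate 2; the absolute depth is unknown.

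Symbols that averaged 1 FPKM or more were fitted as log2(FPKM + 1) with limma 3.58.1 in R 4.3.3 (intensity trend, group as the only term, two-sided, Benjamini-Hochberg over 10786 symbols, threshold 0.05), after a test on simulated data. Family sums replaced their members in the same fit. Positions and transcripts came from GENCODE M21, where 99.6% of single-row symbols overlapped the deposited locus. Coding sequences were aligned with mafft 7.526. The 10 genes, the 8 other gene lists and the 9 marker lists were chosen with earlier results of these data known. From each other list up to 3 tested genes were named, those past the threshold and then those with the largest difference whose groups did not overlap. Of the marker lists, stellate (median log2 difference 0.14), endothelial (0.34), cholangiocyte (-0.18) and pancreatic acinar (-0.92, 1 gene tested) markers are not discussed further, and of lymphocyte markers 0 were tested.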

Additional observations from a re-analysis of the deposited data

How the results depend on the processing

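The difference of Serpina12 kept its direction in all 15 alternatives (14 planned and 1 added after seeing the data). It was no longer past the threshold with a pseudocount of 5 (-2.78), without the filter (-3.82), or with one prior spread for all genes (-3.82), nor without UAB126 replicate 1 (-4.22) or UAB126 replicate 2 (-3.41). Leaving out 1 library gave -4.22 to -3.41. The count of symbols past the threshold, 15 in the fit as planned, was 27 with a pseudocount of 0.1, 2 with a pseudocount of 5, 0 with no filter (1764 at an unadjusted p under 0.05), 24 with quantile normalization, 23 with median centring and 26 with the length trend removed, and leaving out 1 library gave 0 to 442 (0 without UAB126 replicate 2, where 737 had an unadjusted p under 0.05, 56 without vehicle replicate 2 and 442 without vehicle replicate 1). Higher and lower calls were 5 and 10 as planned, 12 and 12 with quantile normalization, 16 and 10 with the length trend removed, 108 and 334 without vehicle replicate 1, 20 and 36 without vehicle replicate 2, and 14 and 0 without UAB126 replicate 1. The replicate block gave 148 (38 higher, 110 lower); the deviations of same-numbered libraries had a correlation of 0.178 across genes, but with 2 pairs and no label that ties the numbers they share only a number. With the replicate block Serpina4-ps1, Zbtb16 and Tat passed (limma adjusted p = 0.00468, 0.0299 and 0.0381), as did Obp2a (0.0405) and Lcn2 (0.0272). Serpina1b turned to 0.33 and Agt to 0.05 with quantile normalization, and Serpina6 ran from -0.27 to 0.46 when 1 library was left out. The summed Serpina1 and Serpina3 genes did not pass in any alternative, at -1.18 to -0.03 and -0.93 to -0.06. The cause of these moves was not tested. Depth limits the low values most, such as those of Serpina12 with UAB126 and the low values of vehicle replicate 2, the shallowest library.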
